A study of Mus musculus with 9 samples.

Results

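The genes described here are Actc1 and 6 further sarcomere genes, Acta1, Myl4, Tnnt2, Ankrd1, Ankrd2 and Csrp3, measured by every probe set annotated to them. They make up 7 of 18193 genes and 11 of the 34945 probe sets listed to 1 gene. The set was assembled because Actc1 was about 8-fold lower with testosterone than after castration, so it was selected on the measured values of that comparison, which are given below as a description with no test. The gastrocnemius, a calf muscle, was profiled in CD-1 mice, outbred animals used here as young adults, 14 days after surgery. Each treatment had 12 mice, and 27 of the 36 mice reached the arrays as pools of RNA from 3 animals, 4 µg each. The testosterone group was castrated and given a 2.5 mg testosterone pellet made to release over 60 days. The castration group was castrated and given a placebo pellet, and the sham group had sham surgery and a placebo pellet. Each group had 3 Affymetrix arrays, so every SD below is the spread between pools rather than between animals, and the small number of arrays limits the precision.

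The sarcomere is the contractile unit of striated muscle, in which actin thin filaments slide past myosin thick filaments between Z-discs. Striated muscle uses a pair of alpha-actins: Actc1 encodes the cardiac form, which is also made in embryonic and regenerating skeletal muscle, and Acta1 encodes the form that takes over in adult skeletal muscle. Myl4 and Tnnt2 are likewise isoforms of the embryonic or cardiac sarcomere, and Ankrd1, Ankrd2 and Csrp3 encode proteins of the Z-disc and of titin that are known to respond to stretch and load.

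Values are log2 expression from RMA, a method that corrects the background, quantile-normalises the probe values of all arrays together and combines the probes of a probe set. A gene with several probe sets is represented by the one with the highest mean. Array medians lay between 3.15 and 3.265, and values near them are called dim below. The tissue label fitted its markers: all 9 skeletal fibre genes had means of 12.2 to 14.01, and 9 of 10 cardiac markers had means under 5, the exception being Myl2, which slow skeletal fibres also use. Testosterone 2 and sham 2 stood apart, with mean correlations to the other arrays of 0.983 and 0.973, against 0.990 to 0.991 for the remaining 7. Differences are therefore also given without those arrays. In whole muscle, fewer cells of a type cannot be told apart from less RNA per cell.

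Actc1 was the member with the widest spread over the arrays. Its probe set, 1415927_at, read 7.90, 6.98 and 7.17 in testosterone muscle, 10.73, 10.02 and 10.30 in castration muscle, and 7.37, 8.59 and 8.74 in sham muscle. Every castration array lay above all other arrays, while testosterone and sham arrays overlapped through sham 1, the lowest of its group. The lowest castration array exceeded the highest other array by 1.27 on the log2 scale, the widest such gap of the 18193 genes, of which 342 (1.88%) had any gap in this direction. That rank uses the arrays that chose the gene and is given only to describe it. Testosterone muscle averaged 7.35 ± 0.48 and castration muscle 10.35 ± 0.36 (SD, n = 3 each), a difference of -3.0 or 8.0-fold lower with testosterone. It was -2.82 without testosterone 2 and sham 2. Of all genes, 872 (4.79%) had all testosterone arrays below all castration arrays. Among the 7 genes, Actc1 was the member whose arrays did not overlap between these groups, where 9.01% of all genes did not.

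The comparison of castration with sham asked what loss of the testes does to the muscle. It was not used to choose the genes, but it shares the castration arrays with the comparison that was. Actc1 averaged 10.35 ± 0.36 in castration muscle and 8.24 ± 0.75 in sham muscle (SD, n = 3 each). The difference was 2.12 (SE 0.384, 95% interval 1.24 to 2.99), or 4.33-fold higher after castration, with an interval of 2.36- to 7.95-fold. Its unadjusted limma p of 0.000446 ranked 19 among 18193 genes, and the p adjusted by Benjamini-Hochberg was 0.419, so it did not pass. At the adjusted threshold of 0.05, 0 genes passed in limma (percent called 0), while 859 genes (4.72%) had an unadjusted p under 0.05. Of the members 1 of 7, Actc1, had castration arrays that did not overlap sham arrays, where 8.89% of all genes did not. Without sham 2 and testosterone 2 the difference was 2.29 (adjusted p = 0.181). With limma array weights it was 2.88 (adjusted p = 0.00462), the 1 alternative run in which Actc1 passed. Those weights were 4.61 for sham 1, the sham array with the lowest Actc1, and 0.164 for sham 2.

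The comparison of testosterone with sham asked how a replaced muscle differs from an intact one, and it shares the testosterone arrays with the comparison that chose the genes. Actc1 averaged 7.35 ± 0.48 in testosterone muscle and 8.24 ± 0.75 in sham muscle (SD, n = 3 each), a difference of -0.89 (SE 0.384, 95% interval -1.76 to -0.0097), or 1.85-fold lower. The unadjusted limma p was 0.0480 and the adjusted p 0.780, and 0 genes (percent called 0) passed the adjusted threshold, with 791 genes (4.35%) at an unadjusted p under 0.05. The difference was -0.53 without sham 2 and testosterone 2, and -0.14 with array weights. None of the 7 genes had testosterone arrays that did not overlap sham arrays, where 6.47% of all genes did. The order of mean Actc1 levels was thus testosterone lowest, sham between, and castration highest. The neighbours testosterone and sham overlapped through sham 1, and their difference did not pass after adjustment.

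**Figure D1:**
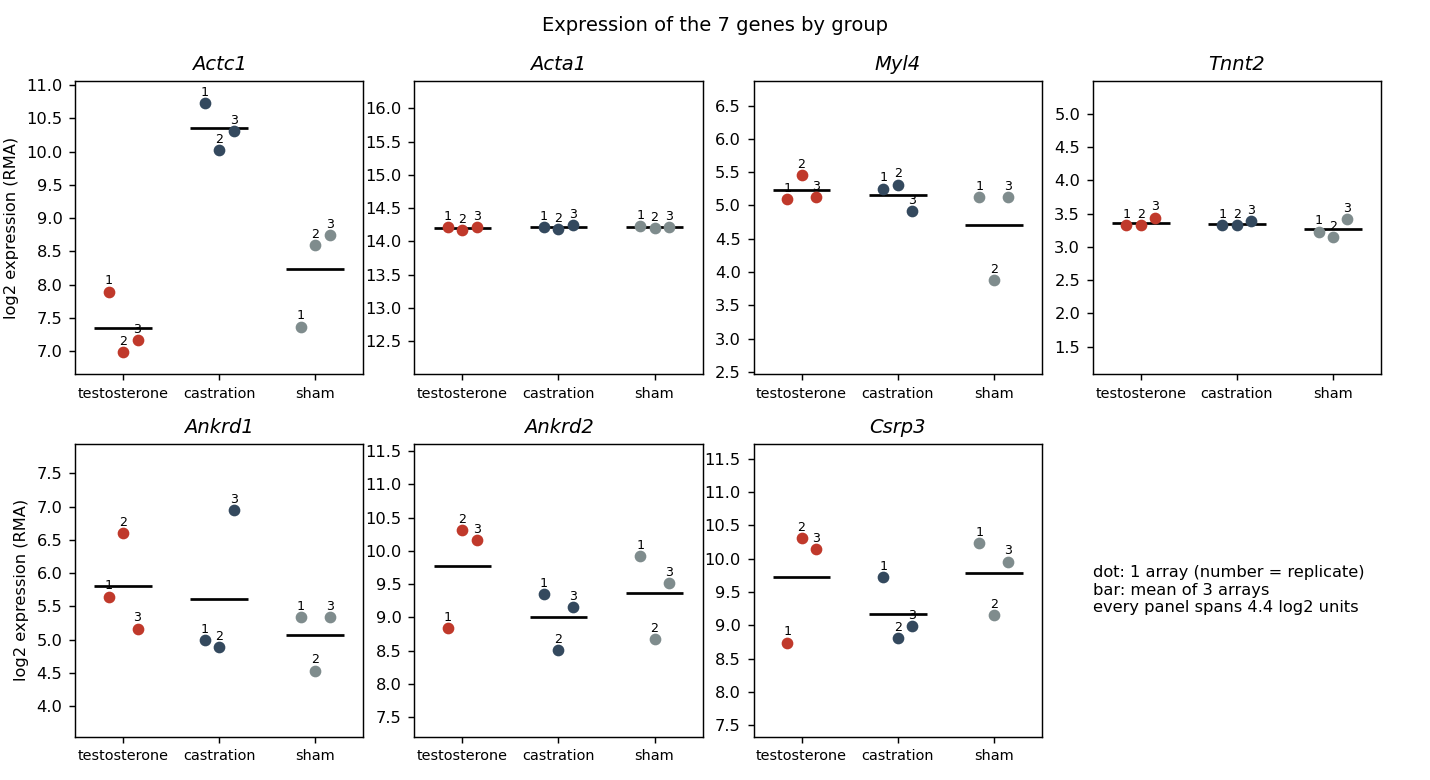
Log2 expression of each of the 7 genes on the 9 arrays, by group; dots are arrays with their replicate number, bars are means of 3 arrays, and every panel spans 4.4 log2 units. The Actc1 castration arrays, 10.02 to 10.73, sit above all others, while the groups overlap in the other panels.

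Acta1, the adult alpha-actin of the thin filament, barely varied. Probe set 1427735_a_at read 14.22, 14.17 and 14.22 in testosterone muscle, 14.22, 14.19 and 14.24 in castration muscle, and 14.23, 14.20 and 14.21 in sham muscle. All groups overlapped within a range of 0.07, and the highest of these values, 14.242, was also the highest of the whole table. Values at the top of the scale may be compressed, so a change in this transcript may be understated. The castration minus sham difference was -0.00043 (95% interval -0.15 to 0.15, limma adjusted p = 0.999), and the testosterone minus sham difference was -0.013 (95% interval -0.16 to 0.14, adjusted p = 0.963). Both changed sign under median centring of the arrays, to 0.031 and 0.021. Both were 0 with quantile normalisation done again, so the small spread of Acta1 says little about its transcript. The testosterone minus castration difference was -0.013. Without testosterone 2 and sham 2 the 3 differences were -0.0067, -0.0051 and 0.0016.

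The pair of alpha-actin promoters share the CArG box, the site bound by serum response factor (SRF), a transcription factor known to drive sarcomeric actin genes. The sequences are shown because they carry a feature common to both actins. Both are the 250 bases before the RefSeq gene start in GRCm38.p6, written 5′ to 3′ on the gene's strand with the CArG box in capitals. The Actc1 window is chr2:114052876-114053125 on the minus strand, and the Acta1 window is chr8:123894776-123895025 on the minus strand.
Actc1 promoter: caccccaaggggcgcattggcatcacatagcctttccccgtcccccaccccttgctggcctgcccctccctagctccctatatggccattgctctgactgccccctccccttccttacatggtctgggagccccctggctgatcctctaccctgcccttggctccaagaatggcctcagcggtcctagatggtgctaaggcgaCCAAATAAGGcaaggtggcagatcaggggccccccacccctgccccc
Acta1 promoter: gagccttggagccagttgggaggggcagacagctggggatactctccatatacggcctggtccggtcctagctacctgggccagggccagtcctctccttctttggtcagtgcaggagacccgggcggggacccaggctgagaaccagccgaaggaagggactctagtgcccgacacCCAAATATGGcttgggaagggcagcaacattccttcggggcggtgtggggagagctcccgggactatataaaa

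The box of Actc1 is CCAAATAAGG and begins 47 bases before the start, and that of Acta1 is CCAAATATGG and begins 73 bases before it. Of 32851 promoter windows of the same length, 482 (1.47%) held a CArG box on either strand. None of the windows of the other 5 genes held one. Only the exact form CCWWWWWWGG, with W for A or T, was searched, so looser boxes may be present. The Acta1 window also had CATTCC, the core of the sites bound by TEAD factors, 46 bases before the start, present in 12.6% of windows, and TATAAA 7 bases before it, present in 12.4%. The Actc1 window held neither, nor any CANNTG, the E-box core bound by myogenic factors, which 66.2% of windows held. Positions and absences depend on the annotated start, and bases after it were not searched. The strictest form of the androgen response element, an exact inverted repeat of AGAACA with 3 bases between the arms, was also searched for. It was absent from the windows of all 7 genes and present in 3 of the 32851, so its absence sets none of them apart. Looser or more distant elements were not searched. The single arm AGAACA, in 16.1% of windows, was found in those of Myl4, Tnnt2 and Csrp3, and not in that of Actc1. All motifs were searched on both strands, each exact repeat contains AGAACA, and a match describes letters only.

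Myl4, the atrial and embryonic essential light chain of myosin, had low values. Probe set 1422580_at read 5.10, 5.45 and 5.13 in testosterone muscle, 5.25, 5.31 and 4.92 in castration muscle, and 5.13, 3.88 and 5.13 in sham muscle. The groups overlapped, and sham 2, one of the arrays that stood apart, was the lowest by more than 1 log2 unit. The differences were 0.45 for castration minus sham (SE 0.312, 95% interval -0.26 to 1.16, limma adjusted p = 0.838) and 0.51 for testosterone minus sham (95% interval -0.20 to 1.22, adjusted p = 0.780). Without sham 2 and testosterone 2 they were 0.034 and -0.016. The other probe set, 1457126_at, was dim and ran the opposite way, with sham 2 its highest array at 4.24 against 3.18 to 3.57 on the other 8. The testosterone minus castration difference of the main probe set was 0.065, and -0.049 without those arrays.

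Tnnt2, the cardiac and embryonic troponin T that ties tropomyosin to the calcium sensor of the thin filament, was dim on all 3 of its probe sets. Probe set 1424967_x_at read 3.33, 3.33 and 3.44 in testosterone muscle, 3.33, 3.33 and 3.38 in castration muscle, and 3.23, 3.14 and 3.42 in sham muscle. The groups overlapped, and its suffix marks probes that may bind other transcripts. The other probe sets lay between 2.89 and 3.27. The differences were 0.082 for castration minus sham (95% interval -0.12 to 0.29, limma adjusted p = 0.856) and 0.10 for testosterone minus sham (95% interval -0.10 to 0.30, adjusted p = 0.780). Represented by probe set 1418726_a_at, castration minus sham was -0.056, so no direction is given. Without sham 2 and testosterone 2 the differences were 0.021 and 0.058. Near the array median such values say little about the level of the transcript, and a difference may not be measurable there.

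Ankrd1, the cardiac ankyrin repeat protein that binds titin and acts as a cofactor in the nucleus, varied most within a group. Probe set 1420992_at read 5.65, 6.60 and 5.17 in testosterone muscle, 4.99, 4.90 and 6.95 in castration muscle, and 5.34, 4.54 and 5.34 in sham muscle. Castration 3 was the highest array and the other castration arrays were among the lower ones, so the groups overlapped. The other probe set, 1420991_at, read 6.22 in castration 3 and 3.71 to 4.44 on the other 8 arrays, so both put castration 3 highest. The SD of the castration group was 1.16, larger than any group mean difference. Castration minus sham was 0.54 (SE 0.573, 95% interval -0.77 to 1.85, limma adjusted p = 0.854) and turned to -0.13 without castration 3, while it was 0.27 without sham 2 and testosterone 2. Testosterone minus sham was 0.73 (95% interval -0.57 to 2.04, adjusted p = 0.780) and 0.069 without sham 2 and testosterone 2, while the other probe set gave -0.11. Testosterone minus castration was 0.19, and -0.60 on the other probe set and -0.20 without the same 2 arrays.

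Ankrd2, a load-responsive ankyrin repeat protein of the titin I-band that is known to be richest in slow fibres, read 8.84, 10.31 and 10.16 in testosterone muscle, 9.35, 8.50 and 9.15 in castration muscle, and 9.92, 8.67 and 9.52 in sham muscle (probe set 1419621_at). Testosterone 2 and 3 were the highest arrays, and testosterone 1 lay within the castration range, so the groups overlapped. The means were 9.77 ± 0.81 in testosterone muscle, 9.00 ± 0.44 in castration muscle and 9.37 ± 0.64 in sham muscle (SD, n = 3 each). Castration minus sham was -0.37 (SE 0.446, 95% interval -1.38 to 0.65, limma adjusted p = 0.866), and -0.72 without sham 2 and testosterone 2 (adjusted p = 0.967). Testosterone minus sham was 0.40 (95% interval -0.61 to 1.42, adjusted p = 0.811) and turned to -0.22 without sham 2 and testosterone 2. Testosterone minus castration was 0.77, or 1.70-fold higher, opposite in direction to Actc1, and 0.50 without those arrays.

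Csrp3, the muscle LIM protein that links the Z-disc to load sensing, read 8.74, 10.31 and 10.14 in testosterone muscle, 9.72, 8.80 and 8.99 in castration muscle, and 10.24, 9.16 and 9.96 in sham muscle (probe set 1460318_at). Testosterone 2 and sham 1 were the highest arrays, testosterone 1 was the lowest, and the groups overlapped. The means were 9.73 ± 0.86 in testosterone muscle, 9.17 ± 0.49 in castration muscle and 9.78 ± 0.56 in sham muscle (SD, n = 3 each). Castration minus sham was -0.61 (SE 0.453, 95% interval -1.64 to 0.42, limma adjusted p = 0.838), and -0.92 without sham 2 and testosterone 2 (adjusted p = 0.949). Testosterone minus sham was -0.053 (95% interval -1.08 to 0.98, adjusted p = 0.980), with a sign that changed when testosterone 1, sham 1 or sham 3 was left out. Testosterone minus castration was 0.56, or 1.47-fold higher, and 0.27 without sham 2 and testosterone 2.

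**Figure D2:**
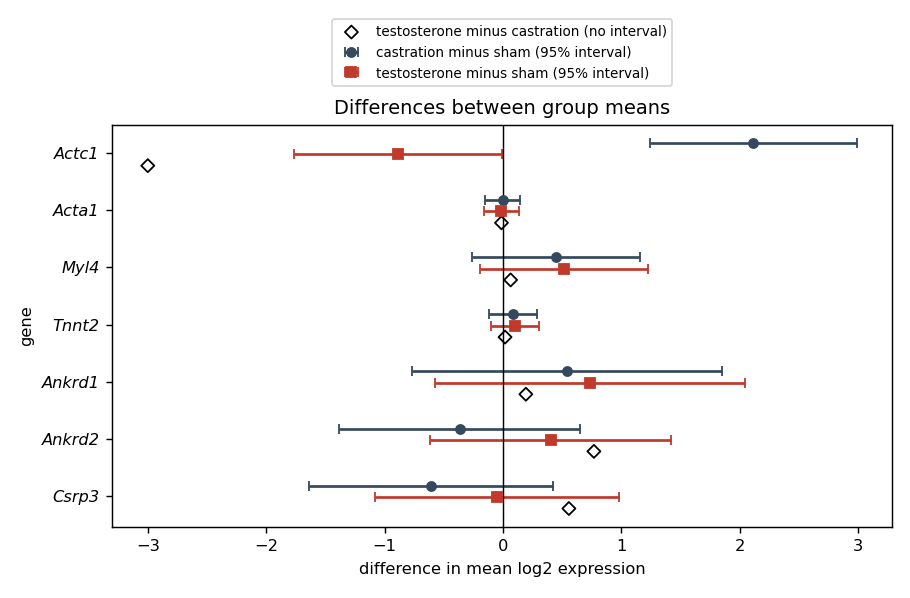
Differences between group means on the log2 axis for the 7 genes, with 95% limma intervals for castration minus sham and testosterone minus sham and none for testosterone minus castration, which chose the set. The Actc1 differences, -3.0, 2.12 and -0.89, are the largest of each comparison, and the intervals of the other 6 genes cross 0.

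The range of the 3 group means was 3.0 for Actc1, against a pooled within-group SD of 0.556. That range is the testosterone minus castration difference the genes were selected on, so it and the rank of the Actc1 SD below only describe the choice. For Ankrd1 the range of means was 0.73 and the within-group SD 0.835, and for Csrp3 they were 0.61 and 0.657. For Ankrd2 they were 0.77 and 0.647, and for Myl4 0.51 and 0.447. Over all 9 arrays the SD of Actc1 ranked 6 and that of Ankrd1 75 among 18193 genes. Csrp3 and Ankrd2 ranked 190 and 165, while Acta1 ranked 18180. Myl4 ranked 924 and Tnnt2 15055. For Ankrd1 and Csrp3 the within-group SD exceeded the range of the group means.

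Ankrd2 and Csrp3 moved together from array to array. Over the 9 arrays their Pearson r was 0.925 and Spearman rho 0.9, r was 0.888 without the 2 arrays farthest from the Ankrd2 median and 0.924 without sham 2 and testosterone 2. After subtraction of the group means r was 0.963, so the parallel lay within the groups. It was the highest of the 21 pairs of members, of which the next was 0.635. That next value, of Myl4 and Tnnt2, had a rho of 0.115 and was -0.263 without sham 2 and testosterone 2. Actc1 ran against both, with r of -0.617 for Ankrd2 and -0.541 for Csrp3. The 9 points of each pair share their arrays and RNA pools, and these correlations are descriptions.

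The Ankrd2 and Csrp3 promoters are shown because these 2 genes moved together, with every CANNTG E-box in capitals. Both are 250 bases before the RefSeq start in GRCm38.p6, Ankrd2 at chr19:42035777-42036026 on the plus strand and the first of 2 Csrp3 windows at chr7:48848052-48848301 on the minus strand.
Ankrd2 promoter: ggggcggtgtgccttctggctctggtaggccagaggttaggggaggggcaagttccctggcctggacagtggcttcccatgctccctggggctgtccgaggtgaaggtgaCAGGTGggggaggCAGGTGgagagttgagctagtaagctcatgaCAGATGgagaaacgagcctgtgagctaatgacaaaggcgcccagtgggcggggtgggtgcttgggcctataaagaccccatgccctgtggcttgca
Csrp3 promoter: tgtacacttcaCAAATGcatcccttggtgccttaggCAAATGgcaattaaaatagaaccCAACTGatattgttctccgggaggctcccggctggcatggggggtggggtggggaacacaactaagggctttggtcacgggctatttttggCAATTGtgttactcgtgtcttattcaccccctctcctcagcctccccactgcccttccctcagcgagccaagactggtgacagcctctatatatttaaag

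Ankrd2 held 3 E-box cores, which began 140, 127 and 96 bases before the start, and TATAAA at 29. Csrp3 held 4, the first at 239 and the last at 100, with AGAACA at 181. Since 66.2% of all windows hold a CANNTG, its presence sets neither gene apart. Neither window held a CArG box of the exact form searched.

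Since Ankrd2 is known from slow muscle, 6 slow sarcomere genes (Myh7, Myl2, Myl3, Tnni1, Tnnc1 and Tnnt1) were set beside it. They were chosen after their values had been seen, and the lowest correlation between any pair of them was 0.912. Their score, the mean log2 deviation from each gene's mean, was -0.40, 0.81 and 0.27 in testosterone muscle, 0.59, -0.31 and -0.20 in castration muscle, and 0.34, -0.62 and -0.48 in sham muscle. The score thus spread widely inside each group, and the groups overlapped. Over 9 arrays r with the score was 0.762 for Ankrd2 (rho 0.667) and 0.697 for Csrp3 (rho 0.6). Without testosterone 2 and castration 1, the arrays farthest from the median of the score, these were 0.798 and 0.652. Without sham 2 and testosterone 2 they were 0.573 and 0.588. For Actc1 r was -0.243 (rho -0.233), and -0.512 without testosterone 2 and castration 1. It was -0.017 without sham 2 and testosterone 2, and -0.545 after subtraction of the group means. Castration 1, with the highest Actc1, had the second highest slow score.

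**Figure D3:**
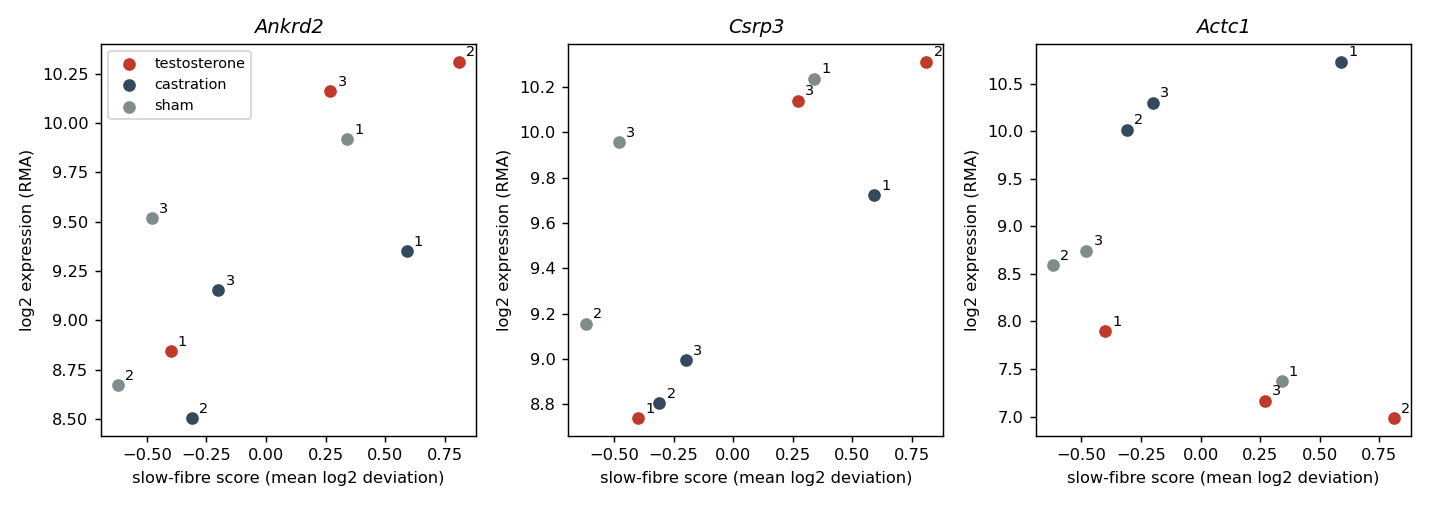
Log2 expression of Ankrd2, Csrp3 and Actc1 against the slow-fibre score of the same array (mean log2 deviation of 6 slow sarcomere genes), 1 dot per array with its replicate number, coloured by group. Ankrd2 and Csrp3 are highest where the score is highest within each group, while the 3 castration arrays of Actc1 stay above 10 at scores of -0.31 to 0.59.

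Genes with the array pattern most like that of Actc1 were sought among 2015 genes with an SD of at least 0.3 and a mean of at least 5. Over 9 arrays 6 genes reached r of 0.9 or more: Gstm2 (0.938), Sorl1 (0.932), Mybph (0.923), Sesn1 (0.914), Ccdc50 (0.914) and Itm2a (0.912). Castration arrays lay above all others in each of them, against 1.88% of all genes, which the choice of genes by their likeness to Actc1 made nearly certain. Arrays of 1 group share their treatment. Without castration 1 and 3, the arrays farthest from the Actc1 median, r was 0.916, 0.938, 0.9, 0.850, 0.813 and 0.812 in the same order. Without sham 2 and testosterone 2 it was 0.915 to 0.976 over the 6 genes. On the opposite side 10 genes had r of -0.9 or below. The 3 most opposite were Fkbp5, a co-chaperone of steroid receptors, at -0.965, Rnf126, a ubiquitin ligase, at -0.959, and Smox, spermine oxidase, at -0.956.

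Mybph, myosin-binding protein H of the thick filament, was the sarcomere gene among the 6. It read 9.05, 8.08 and 8.13 in testosterone muscle, 10.30, 10.55 and 10.72 in castration muscle, and 7.35, 9.57 and 8.87 in sham muscle. Sham 1 was the lowest sham array here too, and testosterone overlapped sham. Castration minus sham was 1.92 (SE 0.507, limma adjusted p = 0.787), testosterone minus sham -0.18 (adjusted p = 0.932) and testosterone minus castration -2.10. Gstm2, a glutathione transferase and the gene most like Actc1, read 7.19, 6.12 and 6.79 in testosterone muscle, 8.12, 8.29 and 8.52 in castration muscle, and 6.66, 7.25 and 6.99 in sham muscle. Its castration minus sham difference was 1.34 (adjusted p = 0.445). Those of Sesn1, Itm2a, Sorl1 and Ccdc50 were 1.35, 0.63, 0.61 and 0.61, with adjusted p between 0.271 and 0.485.

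**Figure D4:**
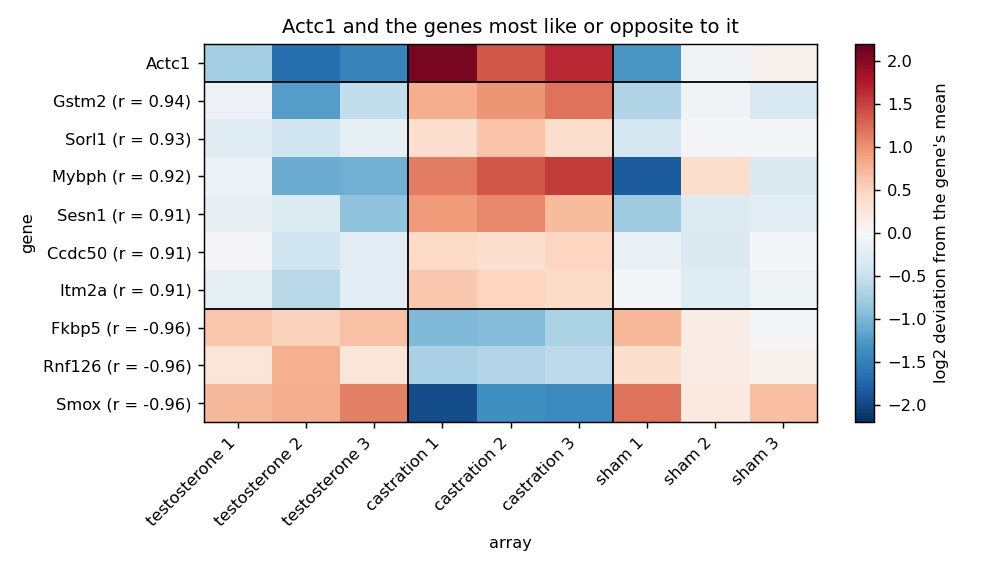
Log2 deviation from each gene's mean over 9 arrays for Actc1, the 6 genes with the highest and the 3 with the lowest correlation to it; columns are arrays by group and colour gives the deviation. The castration columns are high in the upper 7 rows and low in the lower 3.

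Like Actc1, the sarcomere genes on the lists did not pass the test in either comparison with sham. Of 19 other developmental and cardiac isoforms 10 were higher and 9 lower after castration than in sham, where 52.9% of all genes were higher, with a median difference of 0.005 against 0.010 over all genes, and none passed. Against sham, 12 were higher and 7 lower with testosterone, where 52.1% of all genes were higher (median 0.041, against 0.007 over all genes), and none passed. The embryonic and neonatal myosins Myh3 and Myh8 were dim, at 2.97 to 3.55 and 3.06 to 3.33, and 10 of the 19 had means under 5, as did 12631 genes (69.4%) in all. The 4 members with the smallest unadjusted p were Myh7b, Tnni3, Mybpc3 and Nppb. Of these Myh7b, a slow-type myosin, averaged 3.9 ± 0.10 in testosterone muscle and 4.13 ± 0.19 in sham muscle (SD, n = 3 each), with an adjusted p of 0.780. Tnni3, Mybpc3 and Nppb, the cardiac troponin I, cardiac myosin-binding protein C and a natriuretic peptide, differed by -0.25, -0.23 and -0.17 in castration minus sham (adjusted p = 0.838 each).

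Adult fast isoforms and the other actins differed from sham by small amounts. Of 12 fast sarcomere genes 8 were higher and 4 lower after castration than in sham (median 0.028), and 4 were higher and 8 lower with testosterone than in sham (median -0.018), none passing. Over all genes 52.9% and 52.1% were higher in these comparisons. Myh1, the fast 2X myosin, differed by -0.17 in castration minus sham (adjusted p = 0.838), Tpm2 by 0.10, Myh2 by 0.09 and Actn3 by 0.06. Of the 4 Tpm2 probe sets only 2 had that sign. Of 4 other actins 3 were higher and 1 lower in both comparisons with sham, with medians of 0.036 for castration and 0.026 for testosterone. Acta2, the smooth muscle actin, read 9.14, 9.30 and 9.16 in testosterone muscle, 9.22, 9.14 and 9.00 in castration muscle, and 9.36, 8.70 and 9.02 in sham muscle, so its groups overlapped. Castration minus sham was 0.09 for Acta2, 0.06 for Actg1, -0.11 for Actb and 0.01 for the dim Actg2. Actin transcripts are alike in their coding parts, and how far the Actc1 probes bind other actins was not tested.

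Partners of the Z-disc and of titin were split. Of 24 measured genes of 26 listed, 14 were higher and 10 lower after castration than in sham (median 0.006), and 10 were higher and 14 lower with testosterone than in sham (median -0.011), with none passing. Over all genes 52.9% and 52.1% were higher in these comparisons. Titin, Ttn, averaged 13.33 in testosterone, 13.32 in castration and 13.18 in sham muscle, and its testosterone minus sham difference was 0.15 (SE 0.069, adjusted p = 0.780). Myoz1, a fast-fibre calcineurin-binding protein, differed by -0.20 in castration minus sham, and the LIM protein gene Pdlim5 by -0.22 (adjusted p = 0.838 each). Des, desmin, differed by 0.17 in testosterone minus sham (adjusted p = 0.780). Ankrd23, the third member of the ankyrin repeat family of Ankrd1 and Ankrd2, averaged 12.01 in testosterone, 12.15 in castration and 12.11 in sham muscle.

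SRF and its partners are known to regulate both alpha-actins. Of 19 genes on the list 11 were higher and 8 lower after castration than in sham (median 0.073, against 0.010 over all genes), where 52.9% of all genes were higher. With testosterone 14 were higher and 5 lower than in sham (median 0.132, against 0.007 over all genes), where 52.1% of all genes were higher, and none passed in either comparison. Srf read 7.54, 7.40 and 7.14 in testosterone muscle, 7.01, 7.41 and 6.96 in castration muscle, and 6.97, 6.68 and 7.26 in sham muscle. Its groups overlapped, with testosterone minus sham at 0.39 (adjusted p = 0.780) and castration minus sham at 0.16 (adjusted p = 0.860). Mrtfa and Mrtfb, actin-sensing coactivators of SRF, differed by 0.23 in testosterone minus sham and by 0.52 in castration minus sham. Fos, an SRF target, differed by 0.50 in testosterone minus sham. These 3 had unadjusted limma p of 0.0415, 0.0428 and 0.0298 and adjusted p of 0.780, 0.838 and 0.780. Sham 2, an array that stood apart, was the lowest array for all 4 of these genes, and its part in the differences was not tested.

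Genes of myogenesis, denervation and regeneration were the other setting in which Actc1 is known. Of 16 measured genes of 17 listed, 11 were higher and 5 lower after castration than in sham (median 0.044), where 52.9% of all genes were higher. Of the 16, 3, all higher, had an unadjusted limma p under 0.05, where 4.72% of all genes had one, and none passed. With testosterone against sham 7 were higher and 9 lower (median -0.014), where 52.1% of all genes were higher. Of these, 1 of the higher and 2 of the lower had an unadjusted p under 0.05, where 4.35% of all genes had one. Myog, the transcription factor of myoblast differentiation, read 4.49, 4.97 and 4.4 in testosterone muscle, 5.93, 5.46 and 5.28 in castration muscle, and 4.38, 4.30 and 4.35 in sham muscle. Its castration arrays were above all others, as they were for 1.88% of all genes. The castration minus sham difference of Myog was 1.21 (SE 0.191, adjusted p = 0.271). Across the 9 arrays Myog and Actc1 had r of 0.755 and rho of 0.467, and r of 0.458 without castration 1 and 3.

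Other genes of that list differed less. Chrna1, the muscle acetylcholine receptor alpha subunit, averaged 6.23 in testosterone, 6.57 in castration and 6.18 in sham muscle, with castration minus sham at 0.39 (SE 0.138, adjusted p = 0.838). Runx1, a factor induced by denervation, differed by -0.24 in castration minus sham and by -0.34 in testosterone minus sham, and Cdh15, M-cadherin of satellite cells, by 0.17 and 0.29 (adjusted p of 0.780 in testosterone minus sham for each). Pax7, the satellite cell factor, was dim at 2.80 to 3.17, and all 6 satellite cell markers had means under 5. Summed over the 6, their log2 level was 6.24 to 6.36 in testosterone, 6.26 to 6.35 in castration and 6.09 to 6.24 in sham muscle.

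**Figure D5:**
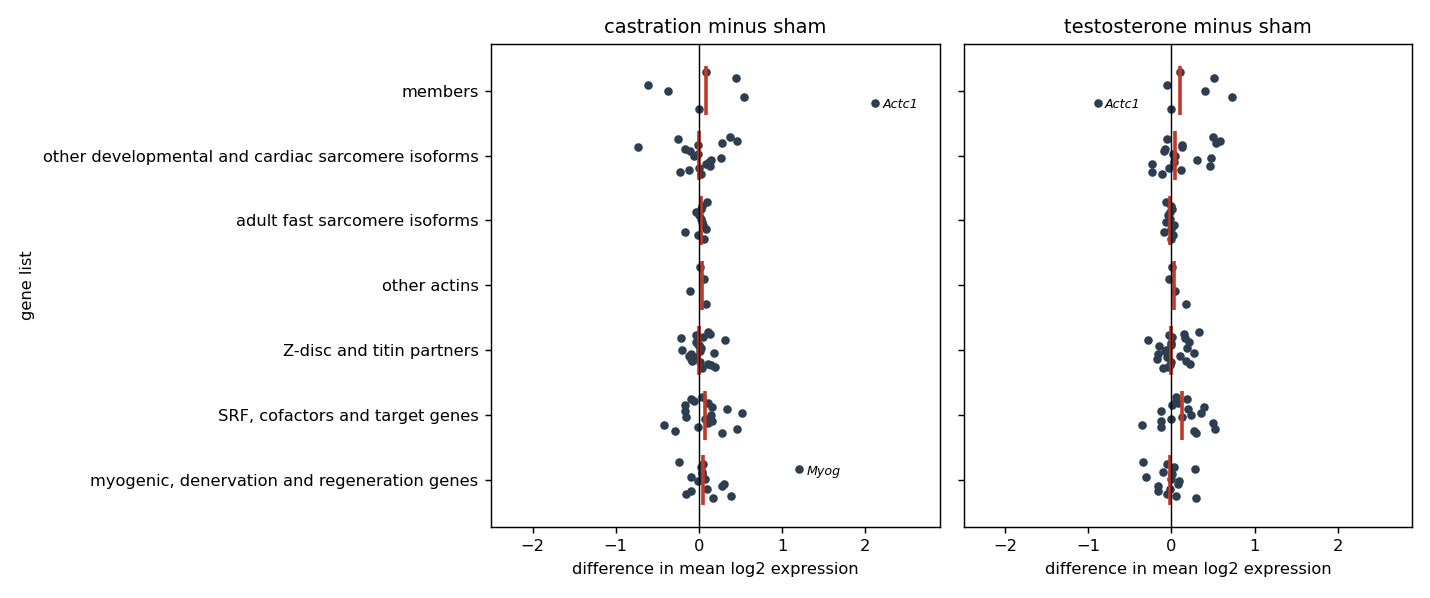
Castration minus sham (left) and testosterone minus sham (right) differences in mean log2 expression for the 7 genes and 6 lists of related genes; dots are genes and red bars list medians. Actc1 at 2.12 and Myog at 1.21 stand away from the other genes on the left, and every list median lies between -0.018 and 0.132.

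Markers of other cells were set beside the groups that differed in Actc1. By score, castration arrays overlapped sham arrays in the fibroblast and tendon lists, and testosterone 1 in the endothelial list. Sham 2 and testosterone 2, the arrays that stood apart, were the lowest of their groups in each of these lists. They were the highest of their groups in the adipocyte list, at 1.03 and 1.31. In 10 macrophage and lymphocyte genes measured of 11, 7 of them with means under 5, they scored 0.42 and 1.10. The remaining arrays scored -0.29 to -0.14 there. The score of 9 measured fibroblast and matrix genes of 10, of which Col14a1 had a mean under 5, was -0.08, -0.56 and -0.33 in testosterone muscle, 0.36, 0.51 and 0.22 in castration muscle, and 0.27, -0.62 and 0.24 in sham muscle. Its summed log2 level was 12.11 to 12.52, 12.76 to 12.96 and 12.23 to 12.93 in those groups. The score of 8 endothelial genes, of which Tek had a mean under 5, was 0.11, -0.28 and -0.05 in testosterone, 0.42, 0.20 and 0.05 in castration, and 0.04, -0.51 and 0.02 in sham muscle. Its summed log2 level was 8.73 to 8.92, 8.93 to 9.27 and 8.30 to 8.89, so castration muscle lay narrowly above both other groups by that sum. The score of 6 measured adipocyte genes of 9, 4 of them with means under 5, was lowest in castration muscle, at -0.75 to -0.64 against -0.62 to 1.31 on the other arrays. The 4 were Retn, Cidec, Lep and Pck1. Its summed level was 10.60 to 11.69 in testosterone, 10.65 to 10.93 in castration and 10.84 to 11.67 in sham muscle. The score of 7 tendon genes, of which Scx, Mkx and Cilp2 had means under 5, was 0.03, -0.27 and -0.24 in testosterone, 0.27, 0.46 and 0.16 in castration, and 0.05, -0.66 and 0.20 in sham muscle. Its summed log2 level was 10.17 to 10.49, 10.69 to 10.93 and 9.38 to 10.62, so castration muscle lay above both other groups by that sum. The part of these lists in the Actc1 values was not tested. The score of 9 smooth muscle and pericyte genes was 0.00 to 0.07 in testosterone, -0.12 to 0.11 in castration and -0.18 to 0.03 in sham muscle, so these groups overlapped.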

How the data were processed

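The authors deposited log2 expression values per probe set, made with RMA, of a version that no source used here gives, per the submitters' processing notes. RMA quantile-normalises the probe values of all arrays together, which can remove a shift common to an array and may compress differences at the top of the scale. The values were used as deposited. The table held 45101 probe sets with 64 controls, of which the platform annotation listed 34945 to 1 gene and 932 to several, and 204 kept the annotation's symbol after a check against the reference gene table. Each of 18193 genes was represented by its brightest probe set. For some genes named beside the 7, other probe sets differed in the sign of castration minus sham. The sign given held on 4 of 6 for Runx1, 5 of 7 for Pdlim5, and 2 of 3 each for Mrtfb, Acta2 and Sorl1. Arrays have no read depth, and 3 pools per group limit the precision.

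Groups and replicate numbers came from the sample titles. Castration minus sham and testosterone minus sham were tested two-sided in limma 3.58.1 (R 4.3.3) by a linear model of the 9 arrays whose sole factor was the group, with moderated variances, and adjusted by Benjamini-Hochberg over 18193 genes at 0.05. Testosterone minus castration, which chose the genes, got no test of the members. The fit was tested on simulated data for castration minus sham over 18193 genes, where it recovered 37, 46, 50 and 50 of 50 genes changed by 1, 1.5, 2 and 3 on the log2 scale, with 6 false calls in all. How many changes of these sizes the fit would recover on the deposited arrays was not tested. On those arrays Actc1, at 2.12 in castration minus sham, had a limma adjusted p of 0.419 and did not pass. Identical values made up at most 5.78% of a pair of arrays.

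The members, gene lists, markers and tests were chosen with earlier results of these data known. The text names all probe sets of the 7 genes, up to 4 genes per list with the smallest p over both tested comparisons, and the 6 genes most and 3 least like Actc1 without predicted or clone names; the slow genes, Myh3, Myh8, Pax7 and Ankrd23 were added after their values were seen. Promoters are from RefSeq (GRCm38.p6) and matched all 7 genes by symbol, with 9 windows. Alternatives were a replicate block, only the groups compared, averaged probe sets, all probe sets, and no cross-hybridising suffixes. A further run left out genes with a mean under 5. Others were quantile normalisation done again, arrays centred on their medians, a variance trend with intensity, and analysis of variance without moderation. Array weights were also used, and arrays were left out singly or, for sham 2 and testosterone 2, together.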

Additional observations from a re-analysis of the deposited data

How the results depend on the processing

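With 3 pools per group and no depth, precision rests on the number of arrays, and dim probe sets such as those of Tnnt2 carry little signal over background. Actc1 in castration minus sham was higher in every alternative run. It passed only with array weights (2.88, adjusted p = 0.00462), and leaving out 1 array at a time gave 1.68 to 2.37. Testosterone minus sham ranged from -1.32 to -0.63 in the same way and was -0.14 with array weights. Testosterone minus castration, which chose the gene, ranged from -3.27 to -2.81. The number of genes called in castration minus sham, 0 as reported, was 2 with averaged probe sets, 5 with renewed quantile normalisation, 2 with an intensity trend, 174 with array weights, 18 without sham 2 and testosterone 2, and 0 to 7 leaving out 1 array, 7 being without sham 2. In testosterone minus sham it was 0 to 1 leaving out 1 array, 1 being without testosterone 3. In testosterone minus castration it was 12 with only the 2 groups compared and 2 with averaged probe sets. It was 7 when genes with a mean under 5 were left out, and 22 with renewed quantile normalisation. A trend gave 12, array weights 59, and leaving out sham 2 and testosterone 2 gave 27. Leaving out 1 array gave 0 to 28, 3 being without sham 1 and 28 without sham 2. The cause was not tested.

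With the replicate number as a block, castration minus sham of Actc1 was 2.12 with an adjusted p of 0.739, and 0 genes were called in each comparison. Deviations from the group means of same-numbered arrays correlated at -0.422 to 0.274, and those of differently numbered arrays at -0.435 to 0.542. With 3 arrays per group, these wide ranges cannot decide whether the numbers pair the samples.

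Signs turned for small differences. Castration minus sham was -0.056 for Tnnt2 without cross-hybridising suffixes, 0.031 for Acta1 under median centring and -0.014 to 0.014 leaving out 1 array, and -0.13 to 0.90 for Ankrd1 leaving out 1 array. Testosterone minus sham was 0.021 for Acta1 under median centring and -0.020 to 0.0011 leaving out 1 array, -0.17 for Ankrd2 with array weights, -0.37 to 0.44 for Csrp3 leaving out 1 array, and, without sham 2 and testosterone 2, -0.22 for Ankrd2 and -0.016 for Myl4.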
